A study of Mus musculus with 4 samples.

Results

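The genes of platelet-derived growth factor (PDGF) signalling were followed in sorted cells of the fetal mouse gonad. The group holds every gene listed under the symbols Pdgfa, Pdgfb, Pdgfc, Pdgfd, Pdgfra and Pdgfrb, which are 4 ligand genes and 2 receptor genes, or 6 of the 20299 genes kept. All 6 were listed once in each library. The 4 libraries were male somatic, female somatic, male germ and female germ cells at 15.5 days post coitum (dpc), with 1 library in each group. All fetuses had CF1 mothers and fathers of the TgOG2 transgenic line, in which the Oct4 (Pou5f1) promoter drives green fluorescent protein in germ cells. Fluorescent cells were sorted as germ cells and the other gonadal cells as somatic cells, so the somatic fraction is a mixture of every non-fluorescent cell type. Total RNA was depleted of ribosomal RNA and sequenced in pairs with strand kept.

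PDGF ligands are secreted dimers that bind receptor tyrosine kinases. In general the PDGF-A chain binds the alpha receptor (Pdgfra), the PDGF-B chain binds both receptors, PDGF-C binds mainly the alpha receptor and PDGF-D mainly the beta receptor (Pdgfrb). In the mouse fetal testis the alpha receptor lies in interstitial cells, and its loss disturbs cord formation, the vasculature and fetal Leydig cells. Endothelial PDGF-B draws in pericytes that carry the beta receptor.

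Levels are given as SPM, the deposited gene signal per 1000000 of the adjusted library total. Depth was estimated at 17.6, 24.2, 24.9 and 17.5 M reads (M is 1000000) in the male somatic, female somatic, male germ and female germ libraries. Both germ libraries held the germ cell helicase gene Ddx4 at 527 SPM (male) and 383 SPM (female), against 3.81 SPM in male and 0.467 SPM in female somatic cells. Pou5f1, whose promoter drives the sorted reporter, had 4.75 SPM in male and 0.0195 SPM in female somatic cells, against 497 SPM in male and 34.5 SPM in female germ cells.

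The promoters of 4 members are shown because these members cover the highest receptor, the pair of ligands with the largest somatic excess, and the ligand with the most germ cell signal. Each is the 250 bases before the start site in the RefSeq annotation of GRCm38.p6, read 5′ to 3′ on the gene's strand, with CG dinucleotides in capitals. The deposited signal was placed on mm9, and no coordinate was carried between the builds. The Pdgfra window is chr5:75152001-75152250 (plus strand), the Pdgfc window chr3:81036166-81036415 (plus), the Pdgfd window chr9:6168236-6168485 (plus) and the Pdgfa window chr5:138994945-138995194 (minus).
Pdgfra: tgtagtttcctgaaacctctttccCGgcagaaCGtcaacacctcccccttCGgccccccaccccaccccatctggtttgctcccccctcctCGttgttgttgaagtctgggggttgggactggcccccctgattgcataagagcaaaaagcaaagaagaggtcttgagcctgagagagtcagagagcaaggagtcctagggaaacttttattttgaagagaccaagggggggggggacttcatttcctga
Pdgfc: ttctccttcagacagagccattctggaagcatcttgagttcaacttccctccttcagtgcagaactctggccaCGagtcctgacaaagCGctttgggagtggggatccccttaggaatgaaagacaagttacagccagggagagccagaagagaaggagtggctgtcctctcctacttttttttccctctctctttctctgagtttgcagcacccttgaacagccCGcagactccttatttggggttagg
Pdgfd: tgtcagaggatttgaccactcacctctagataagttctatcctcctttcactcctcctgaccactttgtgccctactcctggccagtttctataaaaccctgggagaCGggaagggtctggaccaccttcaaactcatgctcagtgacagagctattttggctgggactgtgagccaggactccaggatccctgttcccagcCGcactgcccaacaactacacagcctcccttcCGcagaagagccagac
Pdgfa: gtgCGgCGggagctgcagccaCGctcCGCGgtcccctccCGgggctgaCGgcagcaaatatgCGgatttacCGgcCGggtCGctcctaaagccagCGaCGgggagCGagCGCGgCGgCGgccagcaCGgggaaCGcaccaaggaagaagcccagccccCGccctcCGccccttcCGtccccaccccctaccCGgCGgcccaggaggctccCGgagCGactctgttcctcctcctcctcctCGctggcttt
Windows were examined for these 4 members only, and the other members were left out. Pdgfa had a second start site whose window held 19 CG dinucleotides. The Pdgfa window shown held 28 CG dinucleotides at 72.4% G and C, against 4 in Pdgfra, 3 in Pdgfc and 3 in Pdgfd. The median over 32851 windows of the same length was 6 CG dinucleotides and 52.4% G and C. Exact motif letters were searched on both strands. TATAAA, the TATA box core, occurs in 12.4% of those windows, and the Pdgfd window held it from 160 to 155 bases before the start site. AGATAA, a form of the GATA factor motif, occurs in 9.99%, and the Pdgfd window held it from 223 to 218 bases before the start site. GGGCGG, the GC box core bound by Sp1, occurs in 32.7%, and the Pdgfa window shown held it on the opposite strand from 93 to 88 and from 86 to 81 bases before the start site. The SOX motif AACAAT occurs in 9.42% of windows and the nuclear receptor motif AAGGTCA in 4.08%, and neither was found in the windows of the 4 members. None of the 5 motifs occurred in the Pdgfra or Pdgfc window, which says only that these letters are not there.

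The first comparison set somatic against germ cells. All 6 PDGF genes stood higher in both somatic libraries than in either germ library, and the gap was wide for both receptors and for Pdgfc and Pdgfd but narrow for Pdgfa and Pdgfb. Of 14148 genes tested, 33.8% had both somatic libraries above both germ libraries. In bulk samples, fewer cells of a type and less RNA per cell cannot be told apart.

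Pdgfra (mm9 chromosome 5, 75548315 to 75594229) was the highest PDGF gene in 3 of the 4 libraries per length of transcript. Its level was 2459 SPM in male and 775 SPM in female somatic cells, against 70.2 SPM in male and 5.61 SPM in female germ cells. Divided by listed length, the male somatic level of 364 SPM per kb ranked 94 of the 20299 genes, and the female somatic level of 115 SPM per kb ranked 402. The 4 values did not overlap between cell types, yet the male germ value was itself well above the female one. The log2 difference, somatic minus germ on log2(SPM + 0.5), was 6.05 ± 1.27 (SE, n = 2 libraries per cell type) and did not pass, with a limma adjusted p of 0.0524. Without the male germ library it was 7.82 (adjusted p = 0.0387) and without the female somatic library 6.89 (adjusted p = 0.0452), and both pass, while without the male somatic library it was 5.22 and did not (adjusted p = 0.122).

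Pdgfrb (chromosome 18, 61204803 to 61244721) encodes the beta receptor, which marks pericytes and other mural cells. It stood at 399 SPM in male and 158 SPM in female somatic cells, against 33.0 SPM in male and 1.56 SPM in female germ cells. The order of the libraries was that of Pdgfra. The log2 difference was 4.92 ± 1.39 (limma adjusted p = 0.0856), short of the threshold, and 6.94 without the male germ library (adjusted p = 0.0387). It did not pass without the male somatic library (4.26, limma adjusted p = 0.246) or the female somatic library (5.59, adjusted p = 0.118). Without the female germ library the receptor differences were smaller, at 2.91 for Pdgfrb (limma adjusted p = 0.0886) and 4.29 for Pdgfra (adjusted p = 0.0729).

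Pdgfc (chromosome 3, 80840337 to 81017953) encodes a ligand that is secreted with a CUB domain and must be cut before it binds. It stood at 19.6 SPM in male and 25.5 SPM in female somatic cells, against 0.759 SPM in male and 0.522 SPM in female germ cells. The germ values rest on an estimated 20 and 9 reads. The log2 difference was 4.33 ± 0.66 and passed under the filter of 1 SPM in 2 libraries (limma adjusted p = 0.0358), which Pdgfc met through the somatic libraries alone. With no filter on low values the call was lost (adjusted p = 0.0774).

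Pdgfd (chromosome 9, 6168611 to 6377519) encodes the other CUB-domain ligand. It stood at 22.2 SPM in male and 27.1 SPM in female somatic cells, against 0.814 SPM in male and 0.907 SPM in female germ cells. The somatic values lie close to those of Pdgfc, with the female library slightly higher in both. The log2 difference was 4.20 ± 0.65 and passed (limma adjusted p = 0.0359), but Pdgfd too met the filter through the somatic libraries alone, and with no filter the call was lost (adjusted p = 0.0774). Ddi1, a gene listed within the Pdgfd span on the opposite strand, had 2.18, 1.14, 0.338 and 0.237 SPM in male somatic, female somatic, male germ and female germ cells, and no listed gene overlapped the other 5 members.

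Pdgfa (chromosome 5, 139452928 to 139470907) encodes the classic alpha-receptor ligand, made in the fetal testis by Sertoli cells. It stood at 30.4 SPM in male and 11.0 SPM in female somatic cells, against 6.03 SPM in male and 7.96 SPM in female germ cells. The female germ level was 72.0% of the female somatic level, with a ratio of female somatic to female germ of 1.39 (95% counting interval 1.12 to 1.72). In the male pair the ratio was 5.03 (4.20 to 6.03). The fitted log2 difference of 1.34 ± 0.76 did not pass (limma adjusted p = 0.291).

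Pdgfb (chromosome 15, 79826305 to 79845238), the ligand that endothelial cells use to attract pericytes, stood at 9.65 SPM in male and 5.95 SPM in female somatic cells, against 3.72 SPM in male and 1.58 SPM in female germ cells. It was the lowest ligand per length in both somatic libraries. The fitted log2 difference of 1.45 ± 0.75 did not pass (limma adjusted p = 0.256).

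**Figure D1:**
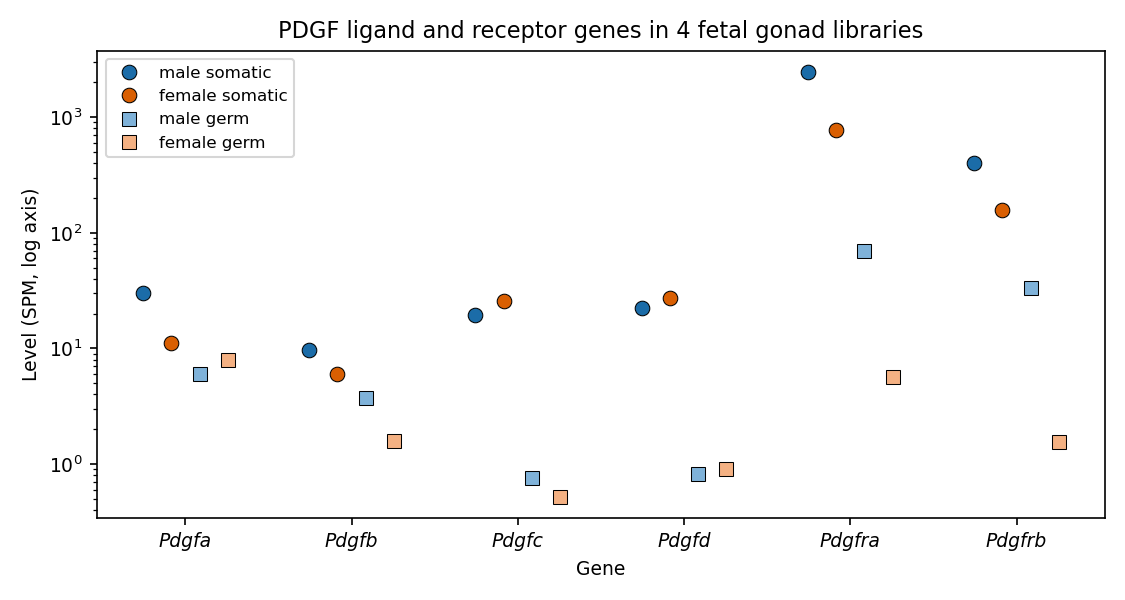
Level of each PDGF gene in the 4 libraries, in SPM on a log axis, with 1 point per library (circles for somatic, squares for germ cells). Both somatic points lie above both germ points for all 6 genes, from a wide gap for Pdgfra (2459 and 775 against 70.2 and 5.61 SPM) to a narrow one for Pdgfa (30.4 and 11.0 against 6.03 and 7.96 SPM).

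Of the 6 members, all of which could be tested, 2 passed as higher in somatic cells and 0 as lower. Over all 14148 genes 5.56% passed as higher and 2.5% as lower (8.06% in either direction), and 4 members had an unadjusted p under 0.05, as did 31.4% of all genes. With no filter on low values 0 genes passed, with 4625 at an unadjusted p under 0.05 (limma). With sex as a term the count was 4, with Pdgfra at a limma adjusted p of 1.98e-07 and Pdgfrb at 4.23e-05, where 13.8% of all genes passed as higher and 7.73% as lower (21.6% in either direction). That fit has 1 residual degree of freedom and borrows 25.7 from other genes. Pdgfc and Pdgfd lost their call without the male somatic library (limma adjusted p = 0.146 and 0.163) and without the female somatic library (adjusted p = 0.148 and 0.167).

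**Figure D2:**
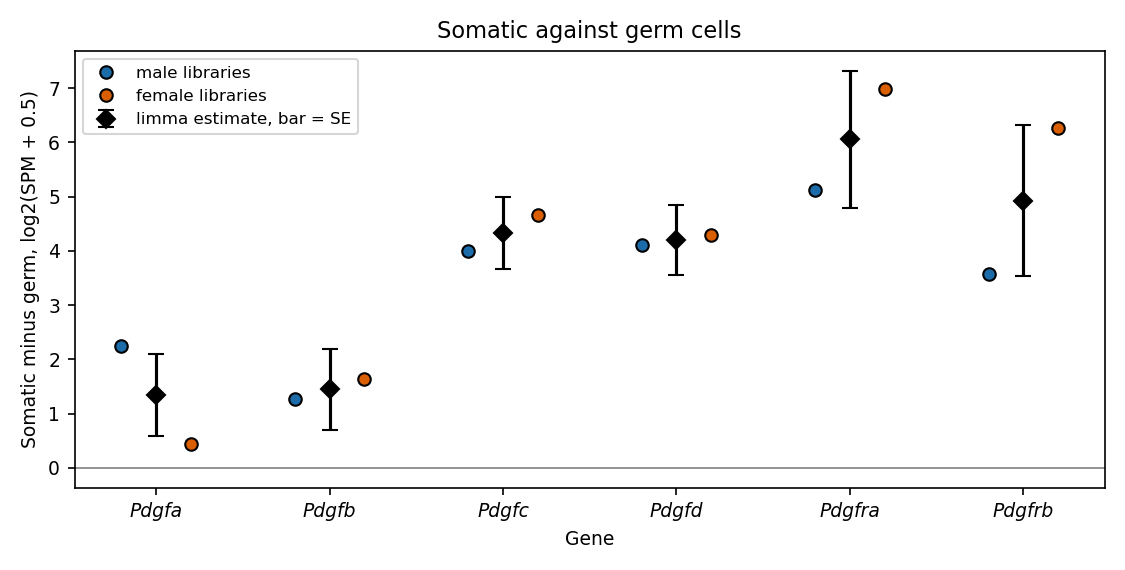
Somatic minus germ difference of each PDGF gene on the log2(SPM + 0.5) scale, for the male libraries, the female libraries and the limma estimate with its SE. Pdgfd has nearly the same difference in both sexes (4.11 in male and 4.29 in female libraries). The male difference is smaller than the female one for Pdgfc (3.995 and 4.67), Pdgfra (5.12 and 6.99) and Pdgfrb (3.57 and 6.27). It is larger for Pdgfa (2.24 and 0.45).

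Within each library the members were compared per kilobase of listed length. In male somatic cells Pdgfa made up 58.4% of the summed ligand level, followed by Pdgfd at 24.2%, Pdgfc at 10.9% and Pdgfb at 6.44%. In female somatic cells Pdgfd led with 42.8%, ahead of Pdgfa at 30.8%, Pdgfc at 20.7% and Pdgfb at 5.74%. The leading ligand thus differed between the somatic libraries, and no replicate shows how stable that order is. In germ cells Pdgfa led in both sexes, with 75.4% in male and 86.8% in female cells.

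The alpha receptor exceeded the beta receptor per length in all 4 libraries, by 4.96 times in male somatic, 3.94 in female somatic, 1.71 in male germ and 2.90 in female germ cells. The summed receptor level was 437 SPM per kb in male somatic, 144 in female somatic, 16.5 in male germ and 1.12 in female germ cells. The summed ligand level was 50.9, 35.1, 7.84 and 8.98 SPM per kb in the same libraries. Receptors therefore stood above ligands in 3 libraries and below them in female germ cells, where the receptor sum was 0.124 of the ligand sum.

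**Figure D3:**
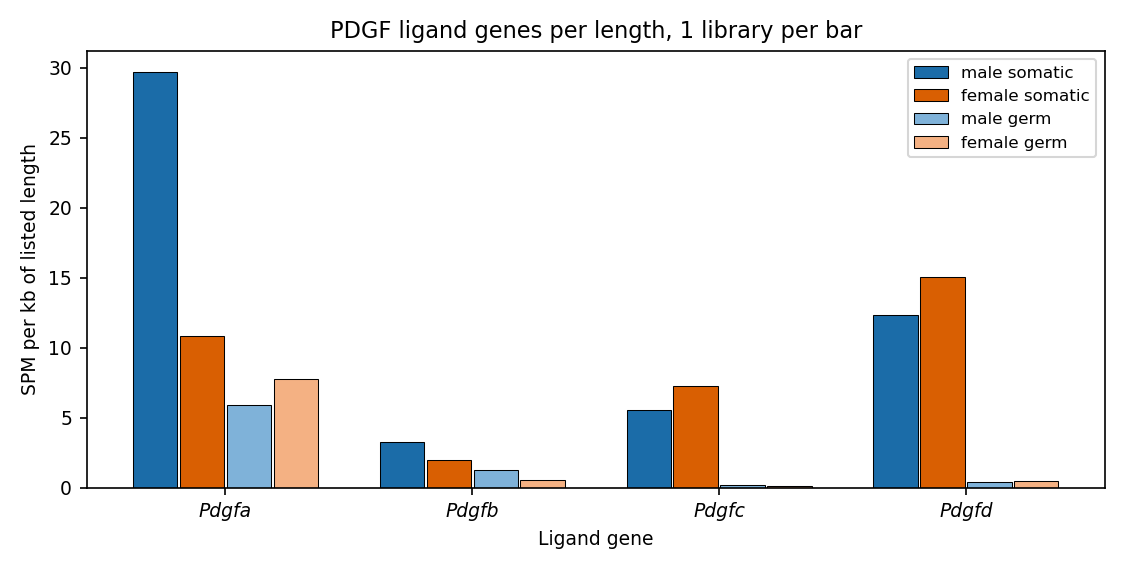
Level of the 4 ligand genes in SPM per kb of listed length, with 1 bar per library. Pdgfa is the tallest bar in male somatic cells (29.7 SPM per kb), Pdgfd in female somatic cells (15.0), and Pdgfa in both germ libraries (5.91 in male and 7.79 in female).

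The second comparison set male against female cells. Both receptors stood higher in the male library in somatic and in germ cells, while the ligands went separate ways. Only 1 library stood on each side, so the ratios carry counting intervals and no p-value.

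In somatic cells Pdgfra was 3.17 times higher in the male library (95% counting interval 3.12 to 3.23), Pdgfa 2.75 times (2.37 to 3.20), Pdgfrb 2.52 times (2.42 to 2.62) and Pdgfb 1.62 times (1.29 to 2.04). Pdgfc and Pdgfd leaned the other way, with male to female ratios of 0.767 (0.670 to 0.878) and 0.820 (0.719 to 0.931). These intervals do not cover the choice of scaling. With library totals alone the Pdgfra ratio was 2.90 (2.85 to 2.95) and the Pdgfrb ratio 2.30 (2.21 to 2.39), both below the intervals given above. None of the 6 reached 4-fold in either direction, a size that 3% of 11835 genes at 5 SPM or more reached as higher in male and 3.17% as higher in female somatic cells. At 2-fold, 3 members counted as higher in male somatic cells, Pdgfa, Pdgfra and Pdgfrb, a size that 9.61% of all genes reached as higher in male and 8.26% as higher in female somatic cells.

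The marker sums of several somatic cell types were also higher in the male somatic library, unlike Pdgfc and Pdgfd. The 11 interstitial stroma markers summed to 14236 SPM in male and 5339 SPM in female somatic cells, the 8 pericyte markers to 670 and 320 SPM, and the 6 smooth muscle markers to 1330 and 249 SPM. The 6 Sertoli markers summed to 730 SPM in male and 32.7 SPM in female somatic cells and the 5 fetal Leydig markers to 805 and 90.5 SPM. The 8 endothelial markers were closer, at 142 and 119 SPM. The erythroid enzyme gene Alas2 had 413 SPM in male and 179 SPM in female somatic cells, against 33.5 SPM in male and 3.07 SPM in female germ cells. None of these markers was at 0 in a somatic library, and their part in the PDGF ratios was not tested.

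In germ cells Pdgfra was 12.5 times higher in the male library (95% counting interval 10.1 to 15.5) and Pdgfrb 21.2 times (14.4 to 32.7). Of the 3 members that reached 5 SPM in a germ library, these 2 passed the 4-fold rule as higher in male cells, which 14% of 11766 genes did, and 0 as higher in female cells, which 10.0% did. Pdgfb had a ratio of 2.36 (1.54 to 3.84) and Pdgfa of 0.759 (0.600 to 0.963). With library totals alone or upper quartile scaling the Pdgfa interval includes equal levels, at 0.672 to 1.08 and 0.727 to 1.17. The intervals of Pdgfc (0.607 to 3.48) and Pdgfd (0.456 to 1.91) include equal levels, so a difference was not detectable at this depth.

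**Figure D4:**
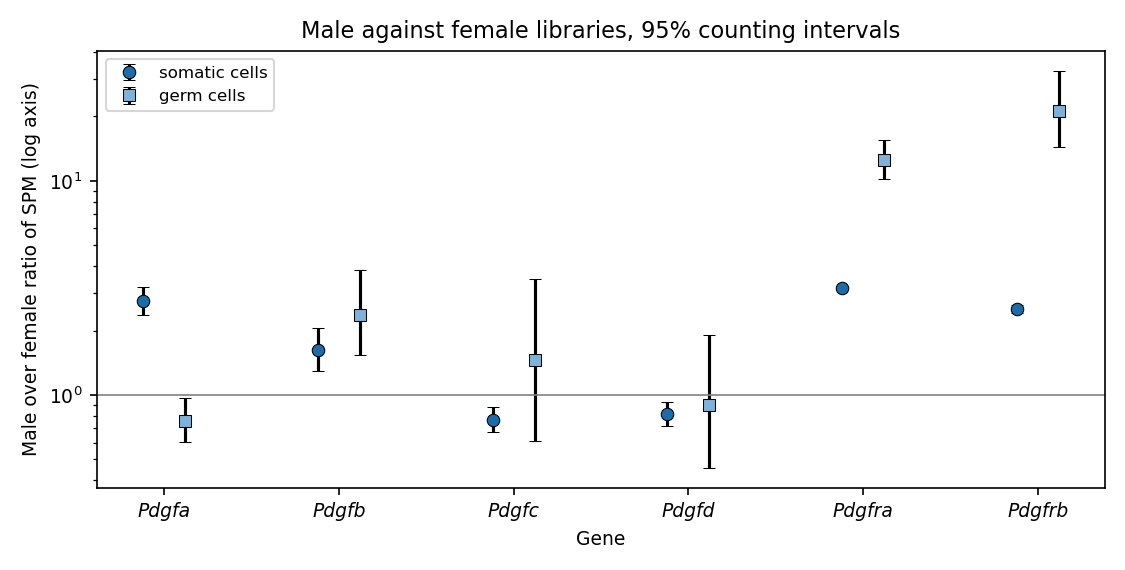
Male over female ratio of each PDGF gene on a log axis, in somatic and in germ cells, with 95% counting intervals that cover counting error only. The germ ratios of Pdgfra (12.5) and Pdgfrb (21.2) lie above their somatic ratios (3.17 and 2.52), and the ratio of Pdgfa lies above 1 in somatic cells (2.75) and below 1 in germ cells (0.759, with an interval that reaches past 1 under library totals alone or upper quartile scaling).

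A male minus female difference common to somatic and germ cells was also fitted, with a term for the cell type. Pdgfra had a male minus female log2 difference of 2.60 ± 0.63 (SE, limma adjusted p = 0.0990) and Pdgfrb of 2.68 ± 0.76 (adjusted p = 0.215). By this fit 0 of the 6 members passed, where 0.134% of all genes passed, all as higher in male cells. An unadjusted p under 0.05 was found for 2 members and for 6.47% of all genes. With a pseudocount of 0.1 SPM both receptors passed (limma adjusted p = 0.00731 for Pdgfra and 0.0259 for Pdgfrb), as did 0.891% of all genes. Under the other alternatives neither passed, with adjusted p from 0.0745 to 0.830 for Pdgfra and from 0.1799 to 0.944 for Pdgfrb. The 4 ligands had fitted differences from -0.19 for Pdgfd to 0.84 for Pdgfb. Whether the sex difference itself differs between somatic and germ cells could not be tested, since such a fit leaves no residual degree of freedom.

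The receptor signal in the male germ library was set beside markers of the somatic cell types. Pdgfra in male germ cells was 2.85% of its male somatic level and Pdgfrb 8.29%, while in female germ cells the shares were 0.724% and 0.984% of the female somatic level. The 11 interstitial stroma markers had a median share of 1.34% in the male pair (range 0.543% to 18.4%), and 9 of them lay below Pdgfra and 10 below Pdgfrb. In the female pair their median share was 1.31%, with 2 below Pdgfra and 5 below Pdgfrb. The 7 pericyte markers at 1 SPM or more in somatic cells gave another order. Their median share was 13.7% in the male pair, with 0 below Pdgfra and 2 below Pdgfrb, and 3.07% in the female pair, with 0 below either receptor. Summed, the stroma markers had 189 SPM in male and 81.8 SPM in female germ cells, with none at 0.

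The pericyte markers summed to 208 SPM in male and 28.5 SPM in female germ cells, with Higd1b at 0 in female germ cells. Much of the male sum was Mcam, at 166 SPM in male and 19.8 SPM in female germ cells, against 71.0 SPM in male and 27.3 SPM in female somatic cells. Cspg4, which encodes the NG2 proteoglycan of pericytes, had 6.55 SPM in male and 0.621 SPM in female germ cells, and the mural cell receptor gene Notch3 had 17.4 and 2.81 SPM. The smooth muscle markers summed to 22.6 SPM in male and 8.90 SPM in female germ cells, the fetal Leydig markers to 62.8 and 11.5 SPM with Cyp11a1, Cyp17a1 and Insl3 at 0 in female germ cells, and the Sertoli markers to 29.997 and 4.87 SPM with Cst9 at 0 in female germ cells. The marker sums of these somatic types thus stood higher in the male than in the female germ library. As a share of the somatic sum most were lower in the male pair than in the female pair. The shares were 1.33% and 1.53% for stroma, 1.70% and 3.58% for smooth muscle, 7.80% and 12.7% for fetal Leydig and 4.11% and 14.9% for Sertoli markers. The pericyte share was higher in the male pair, at 31.0% and 8.91%, as were the shares of both receptors. The part of these cells in the receptor signal was not tested.

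For Pdgfa in female germ cells the 6 pregranulosa markers, genes of the ovarian supporting cells, summed to 32.9 SPM in female germ cells, which is 3.17% of their 1038 SPM in female somatic cells. Taken singly, these markers had 2.21% to 12.8% of their female somatic level there, and Pdgfa had 72.0%. The highest share of a single marker in the female pair was 72.7% in the pericyte, 100% in the stroma and 116% in the endothelial list. The endothelial markers, relevant to Pdgfb, summed to 83.5 SPM in male and 30.2 SPM in female germ cells, against 142 SPM in male and 119 SPM in female somatic cells, with none at 0. The platelet markers summed to between 8.68 and 11.8 SPM in all 4 libraries, with Pf4 and Ppbp at 0 in male somatic, male germ and female germ cells. The 6 macrophage markers summed to 39.7 SPM in male and 16.1 SPM in female somatic cells, against 6.30 SPM in male and 2.72 SPM in female germ cells, where Ptprc was at 0 in both. What these cells contributed to the ligand signal was not tested.

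**Figure D5:**
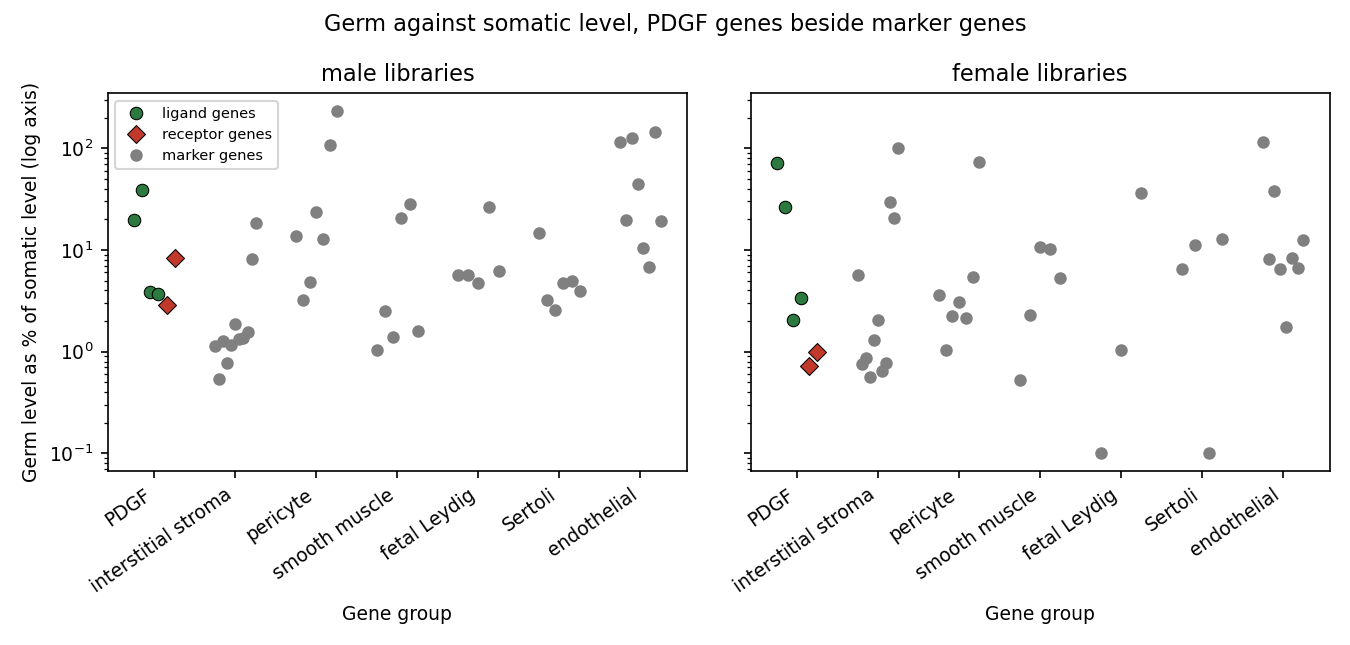
Germ level as a percentage of the somatic level, for the male libraries and the female libraries, on a log axis. Each point is a gene, with PDGF genes beside marker genes of 6 somatic cell types at 1 SPM or more in the somatic library, and shares under 0.1% are drawn at 0.1%. Both receptors lie above most stroma markers in the male pair (2.85% and 8.29% against a median of 1.34%) and not in the female pair (0.724% and 0.984% against 1.31%), most pericyte markers lie above both receptors in either pair, and Pdgfa and Pdgfb lie at 19.9% and 38.5% in the male pair and 72.0% and 26.5% in the female pair.

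Of 8 listed genes of ligand processing and co-receptors 4 passed as higher in somatic cells and 0 as lower, against 5.56% of all genes as higher, with a median log2 difference of 3.52 against 0.11 over all genes. With sex as a term 6 passed as higher and 0 as lower, against 13.8% of all genes as higher. Nrp1, a co-receptor that binds several growth factors, had 156 SPM in male and 65.2 SPM in female somatic cells, against 1.55 SPM in male and 2.06 SPM in female germ cells (log2 difference 5.47 ± 0.70, limma adjusted p = 0.0341). Sparc, a matrix protein that binds PDGF, rose by 4.99 ± 0.42 (adjusted p = 0.0328), Plau, the urokinase that cuts PDGF-D, by 3.69 ± 0.62 (adjusted p = 0.0386) and Lrp1, an endocytic receptor that interacts with the beta receptor, by 3.49 ± 0.53 (adjusted p = 0.0358).

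Plat, the tissue plasminogen activator that cuts PDGF-C, had 80.5 SPM in male and 159 SPM in female somatic cells, against 25.4 SPM in male and 3.12 SPM in female germ cells, and did not pass (limma adjusted p = 0.0929), but passed with sex as a term (adjusted p = 0.00342). Its germ ratio of male over female was 8.15 (95% counting interval 6.16 to 11.1). The convertase gene Furin, whose product cuts PDGF-A and PDGF-B precursors, had 4.14 SPM in male and 19.98 SPM in female germ cells, and its relative Pcsk7 24.1 and 98.3 SPM. Pcsk5 had 257 SPM in male and 58.5 SPM in female somatic cells, a ratio of 4.39 (4.14 to 4.67).

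Genes downstream of the receptors passed at about the share of all genes in the fit without a sex term. Of 20 signalling genes 1 passed as higher in somatic cells and 0 as lower, against 5.56% of all genes as higher. Their median log2 difference was 0.75, against 0.11 over all genes. With sex as a term 5 passed as higher and 0 as lower, against 13.8% of all genes as higher. The gene that passed was Gab1, a docking protein gene, with 90.6 SPM in male and 128 SPM in female somatic cells, against 12.8 SPM in male and 11.3 SPM in female germ cells (3.11 ± 0.48, limma adjusted p = 0.0359). In somatic cells 0 of the 20 differed by 4-fold between the sexes. In germ cells the kinase gene Src had 78.0 SPM in male and 15.7 SPM in female cells, and the phosphatase gene Ptpn2 66.8 and 277 SPM.

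Of 15 listed VEGF and class III receptor family genes 14 could be tested, and 3 passed as higher in somatic cells and 0 as lower, against 5.56% of all genes as higher, with a median log2 difference of 2.12 against 0.11 over all genes. With sex as a term 6 passed as higher, against 13.8% of all genes. Kdr, the main VEGF receptor gene, rose by 5.29 ± 0.69 (limma adjusted p = 0.0347) and Vegfa, its ligand gene, by 3.46 ± 0.50 (adjusted p = 0.0353). Pdgfrl, a gene similar to the PDGF receptors, had 4.32 SPM in male and 4.51 SPM in female somatic cells against 0.101 SPM in male germ cells and 0 in the female germ library, where 3 reads would be 0.179 SPM. It passed (limma adjusted p = 0.0432) under a filter that it met through the somatic libraries alone, and its fitted difference depends on the pseudocount.

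Between the sexes the VEGF family members Figf and Pgf stood higher in the male somatic library, at 37.9 against 2.96 SPM and 37.8 against 4.17 SPM in the female one. Kitl, the ligand of the class III receptor Kit, had 104 SPM in male and 984 SPM in female somatic cells and 5.64 SPM in male and 23.9 SPM in female germ cells. Flt1, a VEGF receptor gene, had 9.66 SPM in male and 1.70 SPM in female germ cells. These 4 passed the 4-fold rule in the cell types named.

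The genes with the most similar profiles were found by Euclidean distance over the 4 libraries, on log2(SPM + 0.5) after taking out each gene's mean, among 13255 genes reaching 5 SPM. With 4 libraries this is a description. Nearest to Pdgfra were Prss35, Ddr2 and Dcn, at distances from 0.53 to 0.85, and Pdgfrb lay at 1.21, with 17 genes nearer. Prss35, which encodes a serine protease-like protein, had 615 SPM in male and 134 SPM in female somatic cells, against 14.6 SPM in male and 1.22 SPM in female germ cells. Nearest to Pdgfrb were Akap2, the erythroid enzyme gene Alas2 and the matrix protease gene Mmp2, at 0.57 to 0.65.

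Pdgfc and Pdgfd lay 0.32 apart, with 18 genes nearer to Pdgfc than Pdgfd was. Nearest to Pdgfc were Maged2, Clic1 and Ccbe1 at 0.10 to 0.17, and nearest to Pdgfd were Tgfb3, Sepn1 and Cyba at 0.14 to 0.19. Tgfb3, a transforming growth factor beta ligand gene, had 36.5 SPM in male and 41.0 SPM in female somatic cells, against 1.46 SPM in male and 1.85 SPM in female germ cells. Pdgfa was nearest to Dpp4, Ctnna3 and Cnih2 at 0.27 to 0.33, and Pdgfb to Apex2, Pabpc4 and Aplp1 at 0.03 to 0.17. Pdgfa and Pdgfb lay 1.13 apart, with 637 genes nearer to Pdgfa than Pdgfb was.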

How the data were processed

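Per the submitters' processing notes, CASAVA 1.9, TopHat 1.2.0 and edgeR were used with the mm9 build; the sources used here do not give the counter, annotation or strand setting. Each deposited file lists the same 20373 genes with a read signal, headed counts per the file headers, that the authors had scaled and rounded. Low values (up to 60) cluster at a spacing of 6.105 (male somatic), 4.105 (female somatic and male germ) and 6.065 (female germ), taken as 1 read. Of them 43.2% to 54.2% lay on it, against 15% to 23.3% by chance. The other low values lay between, and a finer step of 0.821 to 1.221 is also possible. What 1 step stands for was not settled, so the depths, read counts and counting intervals rest on this choice. Exact conditional binomial 95% intervals on these reads cover counting error only. They may be too narrow even for that, since paired reads share a fragment.

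After removal of 74 repeated rows, totals were adjusted by trimmed-mean-of-M factors (0.945, 1.03, 1.07 and 0.956 for male somatic, female somatic, male germ and female germ). Genes reaching 1 SPM in 2 or more libraries were tested with limma 3.58.1 (R 4.3.3, trend, Benjamini-Hochberg, threshold 0.05) on log2(SPM + 0.5), which understates differences of low genes. The labels do not say whether separate animals were used, so p-values cover only the spread between these libraries. In the somatic against germ fit without a sex term, the spread within a cell type is that between its male and its female library. The size rule was 4-fold with 5 SPM in the higher library. Genes of the processing, signalling and VEGF and class III family lists that passed or met the size rule are named. The nearest 3 genes to each member are named too. Cell type markers were not named by that rule, and many that passed or met it are given only within their sums. Other named genes were chosen after their values were seen. Members and lists were chosen with earlier results of these data known. The summed erythroid markers are not reported here.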

Additional observations from a re-analysis of the deposited data

Results flagged for a closer look

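The male over female ratio of 2 ligand genes pointed one way in somatic and the other way in germ cells. For Pdgfa the log2 ratio was 1.46 in somatic and -0.40 in germ cells, a gap of 1.86. The counting interval was 2.37 to 3.20 in somatic and 0.600 to 0.963 in germ cells, and the germ interval includes equal levels with library totals alone (0.672 to 1.08) and with upper quartile scaling (0.727 to 1.17). For Pdgfc the log2 ratio was -0.38 in somatic and 0.54 in germ cells, a gap of -0.92. Its germ ratio rests on an estimated 20 male and 9 female reads, with an interval (0.607 to 3.48) that includes equal levels. With 1 library in each group neither difference was tested.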

How the results depend on the processing

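The direction of all 6 somatic against germ differences held under every alternative run. For that comparison the number of genes passing (1140) became 3049 with sex as a term and 0 with no filter on low values (4625 at an unadjusted p under 0.05), and ranged from 64 to 3597 when 1 library was left out (64 without male somatic, 74 without female somatic, 3597 without male germ and 1801 without female germ), where the lone sample of a cell type is assumed to vary like the other cell type. The number of PDGF genes passing (2) became 4 with sex as a term and 0 with no filter, and ranged from 0 without male somatic to 4 without male germ. For the shared sex difference the number of genes passing (19) became 0 with library totals alone (625 at an unadjusted p under 0.05), 0 with upper quartile scaling (651), 7 with median of ratios scaling, 9 with no filter and 126 with a pseudocount of 0.1 SPM, where 2 PDGF genes passed instead of 0. In that fit the Pdgfc difference of -0.0369 had the other sign with upper quartile scaling (0.0283) and with a pseudocount of 0.1 SPM (0.0420), and no value of it passed. The cause of these shifts was not tested. Upper quartile scaling moved the median of all genes by -0.15 (log2) for somatic minus germ and by 0.11 for male minus female, and median of ratios scaling moved the first by -0.10. By the size rule, a minimum of 20 SPM gave 213 genes higher in male and 193 in female somatic cells (355 and 375 at 5 SPM), and 856 higher in male germ cells (1649 at 5 SPM). At 2-fold the counts were 1137 and 978 in somatic and 3148 and 3094 in germ cells, with 3 PDGF genes higher in male somatic cells instead of 0. No paired analysis was possible because the labels give no replicate numbers and each group holds 1 library; the fit with sex as a term, which sets the somatic and germ libraries of each sex together, is the nearest to one. Depth limits Pdgfc and Pdgfd in germ cells, where 9 to 22 reads were estimated.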
